A study of Mus musculus with 2 samples.

Results

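The cells described here are macrophages of mouse pancreatic islets with high RNA levels of a set of stress-response genes. They were selected on 6 genes: among gated macrophages, the 10% of cells with the highest summed level of Gdf15, Osm, Gclc, Fosl1, Zfand2a and Efr3b were taken. This gave 171 high-score cells, set against the 1535 other gated macrophages, out of 1706 gated cells and 2237 barcodes in all. A gated macrophage had at least 200 genes, at most 10% mitochondrial counts, at least 5000 counted RNA molecules and at least 2000 CPM (counts scaled to a total of 1000000) over the complement genes C1qa, C1qb and C1qc. Levels are counts of unique molecular identifiers (UMIs, tags that mark single captured RNA molecules), summed over the cells of a set and divided by the set's total.

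The study is a single-cell RNA sequencing experiment on immune cells of the islet, and its title concerns an antioxidant program of the macrophages that live there. Islets of 6 to 8 wild-type C57BL/6J male mice were pooled, and live cells negative for the epithelial protein Epcam and positive for the leukocyte protein CD45 were sorted. The cells were stained with oligonucleotide-tagged antibodies to CD9, a membrane tetraspanin, and CD206, the macrophage mannose receptor, and read as an mRNA library and an antibody library with the same barcodes. There is 1 pooled sample, with no treatment, no second genotype and no replicate, so both sets of cells come from the same mice and the same libraries. No difference below has a replicate check or a test, and the 95% intervals cover counting error only.

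Macrophages meet oxidants, heat and reactive metals with several stored transcription programs. NRF2, normally held down by KEAP1, drives genes for glutathione synthesis, heme breakdown and thioredoxin recycling, HSF1 drives chaperones, and ATF4 drives genes for amino acid supply when translation is slowed. GDF15 and oncostatin M are secreted proteins that stressed or activated macrophages are known to make. Enzymatic dissociation of tissue is itself known to induce heat-shock and immediate-early genes.

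The members of the score have different roles. Gdf15 (ENSMUSG00000038508, chr8:70629393-70632470) encodes a stress-induced cytokine of the TGF-β superfamily, and Osm (ENSMUSG00000058755, chr11:4236785-4241026) oncostatin M, a cytokine of the interleukin-6 family. Gclc (ENSMUSG00000032350, chr9:77754535-77794489) encodes the catalytic subunit of the enzyme that starts glutathione synthesis. Fosl1 (ENSMUSG00000024912, chr19:5447698-5455938) encodes the AP-1 subunit FRA-1, and Zfand2a (ENSMUSG00000053581, chr5:139471216-139484491) an arsenite-inducible protein that binds the proteasome. Efr3b (ENSMUSG00000020658, chr12:3962554-4039103) encodes a plasma membrane protein that helps to anchor a lipid kinase. Coordinates are those of the GRCm38.p6 annotation, the build that mm10 names.

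The 6 genes chose the cells, so their own levels are given as a description. The summed level ran from 1506 through a median of 1957 to 6841 CPM in high-score cells, and from 0 through 296 to 1506 CPM in the other gated macrophages. The 3 cells just inside the limit had 1506.02, 1507.35 and 1509.85 CPM and the 3 just outside 1505.85, 1496.53 and 1487.07 CPM. The limit cuts a continuous range, and 73 gated cells lay within 10% of it. In high-score cells Gclc stood at 1163 CPM against 178 CPM in the others, Zfand2a at 330 against 108, Gdf15 at 288 against 39.1, Fosl1 at 235 against 66.8, Efr3b at 99.1 against 12.7 and Osm at 97.5 against 32.6 CPM.

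Gclc weighed most in the choice. It made up 51.6% of the summed score of high-score cells and was the largest term in 114 of them, whereas Gdf15 was the largest term in 27, Zfand2a in 15, Fosl1 in 7, Efr3b in 5 and Osm in 3. Per cell, Gclc ran from 0 through a median of 1025 to 5140 CPM in high-score cells and from 0 through 118 to 1284 CPM in the others. Gdf15 had a UMI in 47.4% of high-score cells and 21.2% of the others, so that most high-score cells had no Gdf15 UMI. Osm had one in 70.2% against 36.0%. At least 4 of the 6 genes had a UMI in 137 high-score cells (80.1%) and in 411 others (26.8%), and all 6 in 24 and 32 cells. By each gene alone, 126 of the 171 high-score cells were among the 10% of gated cells highest in Gclc, 54 among those highest in Gdf15 and 51 among those highest in Osm. The name of a Gdf15-, Osm- and Gclc-high cell therefore describes sums over the set and not each cell.

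Free RNA in the suspension can give UMIs in cells that do not express a gene, and UMIs rise with depth. Shares are therefore also given after thinning each cell to 5000 UMIs, beside those of lymphoid cells of the same suspension, although broadly expressed genes such as Gclc and Zfand2a can be expressed there too (115 cells with a median of 8883 RNA UMIs, against 20115 in high-score and 21047 in other gated macrophages). After thinning Gdf15 had a UMI in 33.3% of high-score cells (26.3 to 40.9%), 9.90% of the others and 3.77% of lymphoid cells. For Efr3b the shares were 21.6%, 4.04% and 0.943%, and for Gclc 93.0%, 47.0% and 26.4%. The order between the sets of macrophages follows from the choice of cells.

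Each of the 6 genes was also high in cells chosen without it. For this the 10% of gated cells with the highest sum of the other 5 genes (171 cells) were taken, and the left-out gene was read in them. Left-out Efr3b stood at 59.1 CPM in these cells and 17.1 CPM in the rest (ratio 3.45, 95% counting interval 2.95 to 4.04). Fosl1 stood at 202 against 70.4 CPM (2.87, 2.64 to 3.12), Zfand2a at 284 against 113 CPM (2.51, 2.34 to 2.69), and Osm at 80.9 against 34.4 CPM (2.35, 2.06 to 2.67). Gclc stood at 558 against 246 CPM (2.26, 2.16 to 2.38). Gdf15 had the smallest ratio of the 6, at 110 against 59.1 CPM (1.86, 1.67 to 2.07). Leaving out Gclc changed the cells most: 98 of the 171 cells chosen by the other 5 genes were high-score cells, against 146 to 160 when another gene was left out. The 6 genes were put together with earlier results of these data known. These ratios therefore describe how the genes vary together and test nothing.

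**Figure D1:**
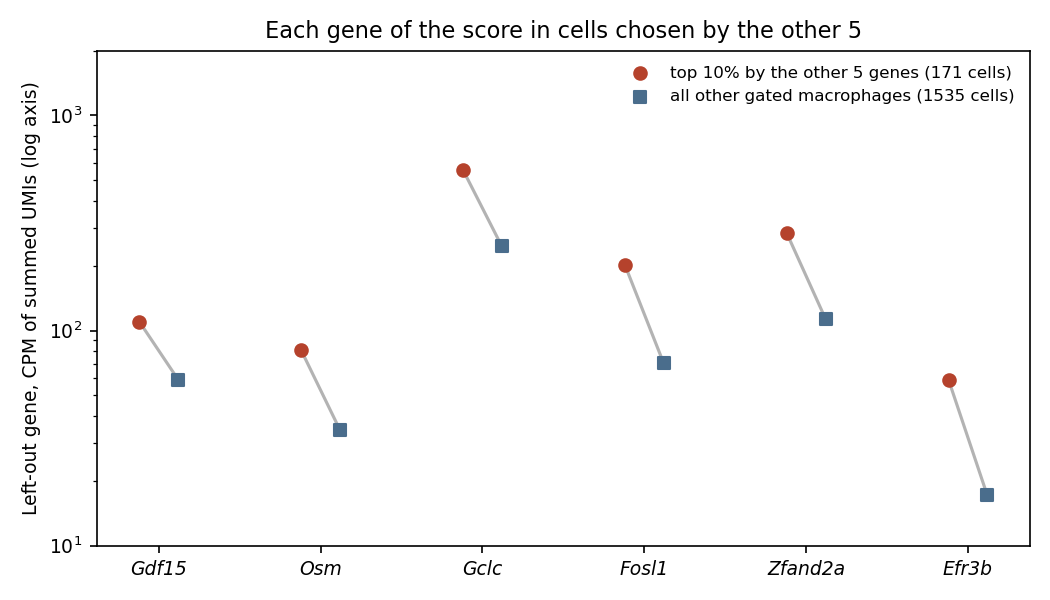
Level of each gene of the score (CPM of summed UMIs, log axis) in the 171 gated macrophages chosen by the other 5 genes and in the 1535 others. Every left-out gene is higher in the chosen cells, from 1.86-fold for Gdf15 to 3.45-fold for Efr3b.

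High-score cells had slightly fewer genes and mitochondrial UMIs than the others, with a median of 3751 genes and 1.20% mitochondrial UMIs, against 4057 genes and 1.39%. All 9939 genes with at least 100 UMIs, the 6 score genes left out, were then compared between the sets. Of these, 640 (6.44%) were at least 1.5-fold higher in high-score cells and 2257 (22.7%) at least 1.5-fold lower. These 2 shares are the background for each count of listed genes below. The median log2 ratio of all genes was -0.19, so a ratio of 1 lies above the typical gene. Lower ratios were more frequent among genes of few UMIs: 36.8% of genes with 100 to 300 UMIs were at least 1.5-fold lower, against 12.2% of those with 1000 or more. When the sets were scaled so that the median ratio was 1, 43.3% of the genes past 1.5-fold were higher, against 22.1% with scaling to total UMIs. Because the cells were chosen on RNA of the same cells, all these counts describe the set and test nothing.

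Genes of the NRF2 program were higher in high-score cells. Of 23 measured NRF2 targets (Gclc left out), 22 had a ratio above 1, 8 were at least 1.5-fold higher and none as much lower, with a median log2 of 0.50 against -0.19 over all genes. Hmox1 (ENSMUSG00000005413), which encodes the heme-degrading enzyme heme oxygenase 1, ran from 64.1 through a median of 7323 to 19112 CPM per high-score cell, and from 0 through 1621 to 20064 CPM per other cell. The sets overlap across their range, but the upper quartile of the others, 4492 CPM, lies below the lower quartile of high-score cells, 5065 CPM. In sums Hmox1 stood at 7193 against 2872 CPM (ratio 2.50, 2.47 to 2.54). It had UMIs in 51.3% of lymphoid cells, at 157 CPM.

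Other enzymes of the program followed with smaller ratios. Cbr3, a carbonyl reductase, was 2.25-fold higher (194 against 86.1 CPM) and Osgin1, an oxidative stress-induced growth inhibitor, 1.92-fold. Srxn1, the sulfiredoxin that reactivates over-oxidised peroxiredoxins, stood at 683 against 361 CPM (1.89-fold, 1.81 to 1.98). Gclm, the partner subunit of Gclc, is not a score gene and stood at 490 against 276 CPM (1.78-fold, 1.69 to 1.87). Gclc, left out of the targets counted here, made up 51.6% of the score of high-score cells. The choice of cells and the NRF2 list are therefore not independent. Slc7a11, the cystine importer, was 1.46-fold higher and Prdx1, a peroxiredoxin, 1.42-fold, while Tkt of the pentose phosphate pathway was lower (0.812). Nqo1 and Me1 were 1.80-fold and 1.98-fold higher at low levels, 26.0 against 14.5 and 9.38 against 4.73 CPM.

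The transcript of NRF2 itself did not differ in this way. Nfe2l2, which encodes NRF2, stood at 975 CPM in high-score cells and 962 CPM in the others (ratio 1.01, 0.978 to 1.05). Keap1, its repressor, was at 49.3 against 58.2 CPM (0.847) and Bach1, a heme-sensitive repressor of the same sites, at 409 against 360 CPM (1.14). The small MAF proteins, DNA-binding partners of NRF2, were higher: Maff 1.91-fold, Mafg 1.74-fold and Mafk 1.47-fold. RNA levels say nothing of the amount or activity of these proteins.

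Heat-shock genes had, beside the AP-1 genes below, the highest list median. All 19 measured members had a ratio above 1, with a median log2 of 0.76. At least 1.5-fold higher were 12 and as much lower none, beside 6.44% and 22.7% of all genes. The score gene Zfand2a made up 15.6% of the score of high-score cells. Outside the high-score set it stood at 303 CPM in the 110 cells highest in heat-shock genes and at 93.5 CPM in the other 1425. The choice of cells and the heat-shock list are therefore not independent. Hspa1b, an inducible HSP70, ran from 0 through a median of 2747 to 13741 CPM per high-score cell, and from 0 through 0 to 22083 CPM per other cell. In sums it stood at 3279 against 927 CPM (3.54-fold), and its near-identical neighbour Hspa1a at 3219 against 843 CPM (3.82-fold). Counting can split reads between these 2 genes, so their separate values are uncertain. The co-chaperones Bag3 (402 against 138 CPM, 2.91-fold) and Dnajb4 (2.72-fold), the HSP110 gene Hsph1 (2.37-fold) and the constitutive HSP70 gene Hspa8 (2.01-fold) were also higher. Of 24 proteasome and ubiquitin genes 3 passed 1.5-fold, among them the polyubiquitin gene Ubb (1.81-fold) and the ubiquitin receptor gene Ubqln1 (1.59-fold), while none of the 16 proteasome subunits listed did.

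Other stress lists lay between. The integrated stress response list had 7 of 20 measured genes at least 1.5-fold higher and 1 lower, beside 6.44% and 22.7% of all genes (median log2 0.44). Atf4, its central transcription factor, stood at 296 against 158 CPM (1.88-fold), Cebpb at 1226 against 667 CPM (1.84-fold), Atf3 at 1084 against 657 CPM (1.65-fold) and the amino acid transporter subunit Slc3a2 at 1077 against 699 CPM (1.54-fold). Ddit3, which encodes the factor CHOP, stood at 75.8 against 52.3 CPM (1.45-fold), and Nupr1 was lower (ratio 0.426). The unfolded protein list of the endoplasmic reticulum lay closer to all genes, with a median log2 of -0.04 against -0.19. None of its 18 genes was 1.5-fold higher, beside 6.44% of all genes. Herpud1 (0.605) and Sel1l (0.642) were as much lower, a smaller share than the 22.7% of all genes. Of 14 p53 targets 7 were higher and 2 lower, among them the cell-cycle inhibitor Cdkn1a (1018 against 571 CPM, 1.78-fold) and Btg2 (2.27-fold). The zinc-binding metallothioneins Mt1 (5720 against 3646 CPM, 1.57-fold) and Mt2 (1.5-fold) were higher too.

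**Figure D2:**
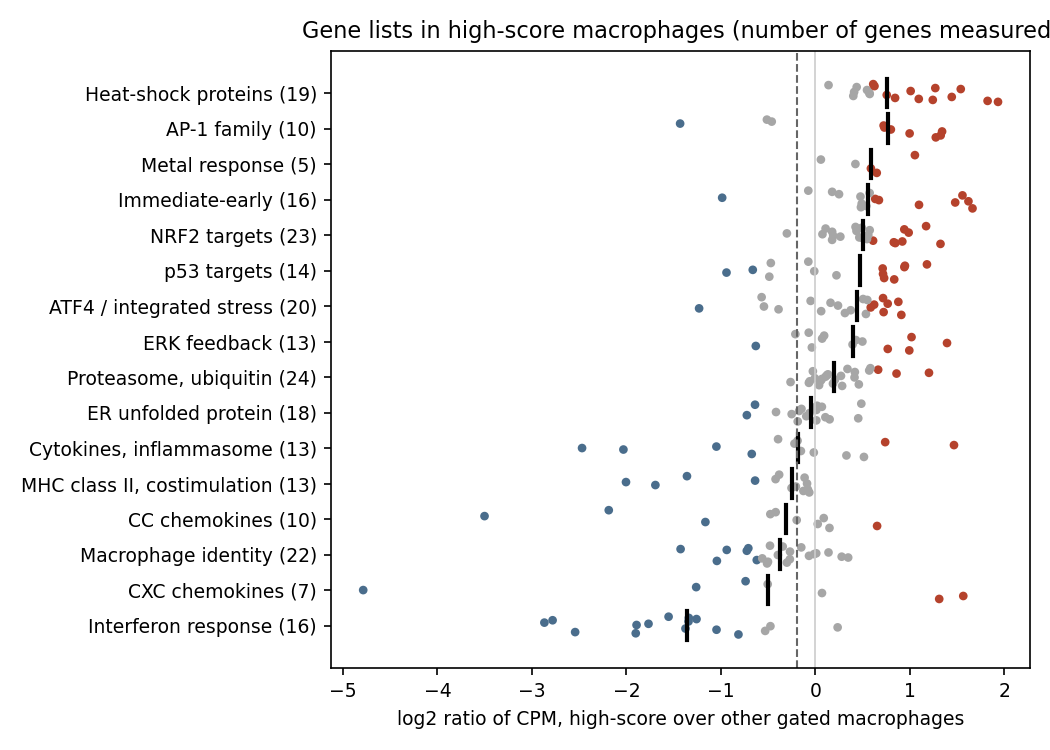
Log2 ratio of CPM, high-score over other gated macrophages, for each measured gene of 16 lists (points; red at least 1.5-fold higher, blue at least 1.5-fold lower), with list medians (black bars) and the median of all genes (dashed line, -0.19). Heat-shock and AP-1 genes have the highest medians of these lists, 0.76 each, and interferon response genes the lowest, -1.36.

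AP-1 and immediate-early genes, the fast transcription factors of growth and stress signals, were higher as well. The AP-1 gene Fosl1, left out of the genes counted here, made up 11.5% of the score of high-score cells. The choice of cells and the AP-1 list are therefore not independent. Of 10 AP-1 genes 7 passed 1.5-fold (median log2 0.76): Jun stood at 321 against 127 CPM (2.53-fold), Fosb at 93.2 against 37.2 CPM (2.51-fold), Fos at 440 against 182 CPM (2.42-fold) and Fosl2 at 59.7 against 29.9 CPM (2.0-fold), while Batf was lower (35.9 against 96.8 CPM, 0.371). Of 16 immediate-early genes 7 were higher and 1, Dusp2, lower, beside the same shares of all genes (median log2 0.56). Egr1 stood at 333 against 105 CPM (3.17-fold), Nr4a2 at 53.6 against 17.4 CPM (3.07-fold), Klf4 at 43.7 against 14.8 CPM (2.94-fold) and Nr4a1 at 287 against 103 CPM (2.79-fold). In a list of genes that ERK signalling induces, Phlda1 (2.63-fold), the urokinase receptor Plaur (540 against 267 CPM, 2.03-fold) and the phosphatase Dusp5 (1.70-fold) were higher and Spred1 lower (0.646).

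Secreted signals went in both directions. Cxcl2, a neutrophil chemoattractant, ran from 0 through a median of 5995 to 43991 CPM per high-score cell, and from 0 through 625 to 46471 CPM per other cell. In sums it stood at 8887 against 3002 CPM (2.96-fold, 2.92 to 3.0). Cxcl1, of the same receptor group, stood at 286 against 115 CPM (2.48-fold), but it had UMIs in 24.0% of high-score cells and 1 cell held 7.16% of all its UMIs; without that cell the ratio was 1.67. The interferon-linked chemokines Cxcl10 (719 against 1723 CPM, 0.417), Cxcl9 (0.0363) and Ccl5 (515 against 1153 CPM, 0.446) were lower, and Cxcl16 was at 0.599. Ccl3, a chemoattractant of monocytes and other leukocytes, was 1.57-fold higher.

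Classical inflammatory cytokines were not uniformly higher. Il1b stood at 2293 against 1826 CPM (1.26-fold) and Tnf at 472 against 478 CPM (0.989, 0.941 to 1.04), whereas Ptgs2, the inducible prostaglandin synthase, stood at 149 against 53.8 CPM (2.77-fold) and Nlrp3, the inflammasome sensor, at 651 against 390 CPM (1.67-fold). Il12b (40.7 against 166 CPM, 0.245), Il27 (0.181), Il18 (0.484) and the interleukin-1 receptor antagonist Il1rn (212 against 339 CPM, 0.627) were lower. Il6, a relative of oncostatin M, was 2.17-fold higher (62.4 against 28.8 CPM, with UMIs in 29.2% and 19.5% of cells). The oncostatin M receptor Osmr was barely seen, with 3 UMIs in high-score cells and 27 in the others, and its partner Il6st stood at 30.5 against 26.9 CPM (1.14). Socs3, a feedback inhibitor of this receptor family, was lower (125 against 287 CPM, 0.434).

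Over all genes, apart from those already named, the highest ratios at depth included Vegfa, the vascular growth factor (205 against 65.5 CPM, 3.13-fold), Atg2a, a lipid transfer protein of autophagosome formation (143 against 44.8 CPM, 3.20-fold), Tmem267 (234 against 71.5 CPM, 3.27-fold) and 1700016P03Rik (86.8 against 23.6 CPM, 3.68-fold). Rgcc, a regulator of the cell cycle, stood at 141 against 18.7 CPM (7.55-fold), and at 4.93-fold without the cell that held 16.1% of its UMIs. Mars2, the mitochondrial methionyl-tRNA synthetase, was 4.66-fold and Gm10069 4.78-fold higher, with UMIs in 16.4% and 18.1% of high-score cells. Kctd19 was 3.78-fold higher and 2.92-fold without its richest cell. Exoc3l2, Pde10a, Colec12 and 4931414P19Rik also met the rule, but they had UMIs in 3, 4, 2 and 7 high-score cells, and without the richest cell their ratios were 7.84, 1.32, 1.47 and 0.883. The glucose transporter Slc2a1 (2.02-fold), the fatty acid transporter Cd36 (1147 against 701 CPM, 1.64-fold) and Fabp5 (1.88-fold) were also higher. The transferrin receptor Tfrc had a ratio of 2.50 from 23 and 83 UMIs. After thinning it had a UMI in 4.68% of high-score cells (2.04 to 9.01%), 1.04% of the others (0.597 to 1.69%) and 6.60% of lymphoid cells.

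Interferon response genes had the lowest median of the lists shown. Of 16 measured genes 13 were at least 1.5-fold lower in high-score cells and none as much higher, with a median log2 of -1.36. Ifit2 stood at 148 against 553 CPM (ratio 0.268), Ifit3 at 50.6 against 295 CPM (0.172), Cmpk2 at 14.7 against 101 CPM (0.146) and Ifi47 at 7.5 against 54.7 CPM (0.137). Oasl1 was the exception, at 1294 against 1099 CPM (1.18). The lowest ratios over all genes lay in the same direction. The guanylate-binding protein gene Gbp5 stood at 16.1 against 173 CPM (0.0929), with a UMI in 11.1% of high-score cells and 38.2% of the others. Il15 was at 0.115, the ion channel gene Calhm6 at 0.108, Slfn1 at 0.0709, the histone methyltransferase gene Setdb2 at 0.0590 and Ifi205 at 0.0385, the last from 8 and 1870 UMIs. Iigp1, an interferon-induced GTPase, had 0 UMIs in high-score cells and 285 in 2.54% of the others. Ifi208, Ifit1bl1, Zfp366 and Gm16685, with 1 to 3 UMIs in high-score cells, had ratios of 0.0236 (0.000595 to 0.132), 0.0183 (0.000464 to 0.103), 0.0208 (0.000524 to 0.116) and 0.0618 (0.0127 to 0.182). Ifi and Ifit genes belong to families of similar sequence, and counting can split their reads.

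Per cell the interferon difference was larger in the upper part of the range than at the median. The summed interferon list had a median of 1183 CPM per high-score cell and 1463 CPM per other cell, while the upper quartiles were 3187 and 5680 CPM. The lower quartiles were near equal, at 446 and 441 CPM. Summed over the cells of each set, the list stood at 2939 against 4858 CPM. Of the 171 gated cells highest in interferon genes, 4 were high-score cells (2.34%, exact interval 0.641 to 5.88%). Without the 10% of gated cells highest in interferon genes, an alternative chosen after seeing the data, the list's median log2 was -1.18 and 8 NRF2 targets were still at least 1.5-fold higher.

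Macrophage identity genes were present in high-score cells. None of the 22 measured was 1.5-fold higher and 6 were as much lower, a share near the 22.7% of all genes, with a median log2 of -0.37 against -0.19 over all genes. Tgfbr1, a TGF-β receptor of resident macrophages, ran from a lower quartile of 89.4 through 191 to an upper quartile of 354 CPM per high-score cell, and from 163 through 412 to 1019 CPM per other cell. In sums it stood at 266 against 714 CPM (0.372, 0.349 to 0.397). Irf8 was at 0.522, the lineage factor Spi1 at 305 against 505 CPM (0.605), the chemokine receptor Cx3cr1 at 0.677, Adgre1, which encodes F4/80, at 0.702 and the growth factor receptor Csf1r at 273 against 337 CPM (0.812). Cd14 stood at 1.1 and Lyz2 at 0.990. The C1q genes, which the gate used, stood at 0.765 to 0.792. Of 13 MHC class II and costimulation genes none had a ratio above 1 and 4 were at least 1.5-fold lower, beside 22.7% of all genes. Their median log2 was -0.25, against -0.19 over all genes. H2-Aa (0.956) and Cd74 (0.941) were close to the others, and Ciita, the activator of MHC class II genes, was lower (22.2 against 89.2 CPM, 0.249). Of markers of other cell types, 2 of 13 T and NK cell genes, 1 of 7 B cell genes and 3 of 10 neutrophil and monocyte genes reached 100 UMIs. The T and NK cell list summed to 596 CPM in high-score cells and 602 CPM in the others, of which Il7r, the interleukin-7 receptor gene, made up 583 and 590 CPM, while the T cell receptor component Cd3e stood at 1.61 and 0.714 CPM. The B cell list summed to 84.1 and 109 CPM, of which Ighm made up 82.0 and 104 CPM. The neutrophil and monocyte list summed to 76.9 and 79.9 CPM, and the neutrophil gene Ly6g had no UMI in either set.

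Islet hormone transcripts were lower in high-score cells. Of 11 measured endocrine genes 9 were at least 1.5-fold lower, beside 22.7% of all genes (median log2 -1.09). Ins2 stood at 906 against 1779 CPM and Ins1 at 403 against 835 CPM. The summed level per cell ran from 231 through a median of 866 to 36360 CPM in high-score cells, and from 194 through 1033 to 155146 CPM in the others. The part of this RNA in the other differences was examined only by leaving out the 10% of gated cells richest in it, which left 7 NRF2 targets at least 1.5-fold higher.

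Along the whole range of the score several of these genes changed by degrees. Gated macrophages were split into 10 bins of 170 or 171 cells by score, with median depths of 18907 to 22561 UMIs. From the lowest to the highest bin Hmox1 went from 564 to 7165 CPM, Cxcl2 from 327 to 8905 CPM and Srxn1 from 113 to 679 CPM, each with its highest level in the top bin. Hspa1a stood under 340 CPM in the 6 lowest bins and at 1285 CPM or more in the 4 highest. Slc7a11 followed another course: it stood at 79.9 CPM in the lowest bin, at 481 CPM in the sixth and at 467 CPM in the highest. Ifit2 went from 910 to 149 CPM, Gbp5 from 354 to 16.2 CPM, Tgfbr1 from 1077 to 266 CPM and C1qa from 3137 to 2006 CPM. Cd9 mRNA had no order along the bins.

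**Figure D3:**
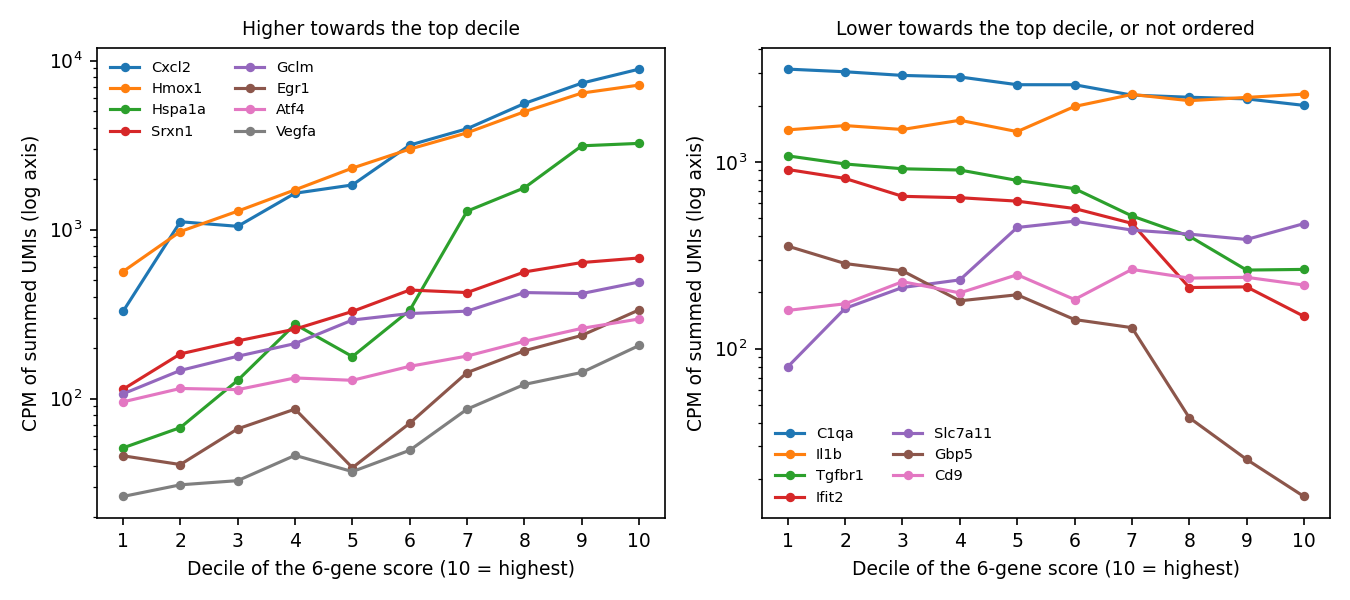
CPM of summed UMIs (log axis) in 10 bins of gated macrophages from lowest to highest 6-gene score. Hmox1 and Cxcl2 are highest in the top bin, at 7165 and 8905 CPM, while Gbp5 and Tgfbr1 are low there, at 16.2 and 266 CPM.

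The score moved with heat-shock genes, which dissociation can induce. The summed level of Hspa1a, Hspa1b, Hsph1, Dnajb1, Dnaja1 and Bag3 had a median of 9776 CPM in high-score cells and 1656 CPM in the others, and 61 high-score cells (35.7%, exact interval 28.5 to 43.3%) were also among the 10% highest in these genes. How far sorting or dissociation contributes was not tested. The other 110 high-score cells, outside the heat-shock-high range, differed from the 1425 gated cells in neither range in the same way: Hmox1 was 2.51-fold (6552 against 2615 CPM), Cxcl2 3.33-fold and Hspa1a still 3.33-fold higher, and Gbp5 was at 0.104. In an alternative, the heat-shock-high cells were left out first and the top 10% by score was taken anew. This gave 154 cells, of which 110 were high-score cells. In them 12 NRF2 targets were at least 1.5-fold higher and the median log2 of the list was 0.59.

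The 110 high-score cells outside the heat-shock range could be set against the 110 heat-shock-high cells outside the high-score set, at median depths of 21241 and 20854.5 UMIs. The 2 sets had near-equal levels of several genes: Hmox1 stood at 6552 against 6238 CPM (1.05), Cxcl2 at 8700 against 8142 CPM (1.07), Vegfa at 166 against 163 CPM (1.02) and Fosl1, a gene of the score, at 192 against 195 CPM (0.985). Other genes of the NRF2 list differed. Slc7a11 stood at 514 against 150 CPM (3.44-fold, 3.06 to 3.88), Prdx1 at 6916 against 3663 CPM (1.89-fold), Gclm at 514 against 325 CPM (1.58-fold) and Srxn1 at 685 against 452 CPM (1.52-fold), whereas the ferritin gene Fth1 (1.11), the autophagy receptor gene Sqstm1 (1.07) and Me1 (1.04, 0.569 to 1.90) lay near 1. Gated cells in neither range had 338 CPM of Slc7a11 and 4576 CPM of Prdx1, more than the heat-shock-high cells. Against those cells the 110 high-score cells were only 1.52-fold and 1.51-fold higher. Gclm (272 CPM) and Srxn1 (354 CPM) were lower in cells of neither range than in heat-shock-high cells. Of the score genes besides Fosl1, Osm stood at 91.5 against 81.3 CPM (1.13, 0.928 to 1.37) and Zfand2a at 255 against 303 CPM (0.842, 0.757 to 0.937). Gdf15 (10.2-fold), Gclc (3.95-fold) and Efr3b (1.75-fold) were higher. Gclc and the other score genes were part of the choice of the first set, and the second left out the cells highest in the score. The part of this in the differences between the 2 sets was not tested. Genes outside the NRF2 list and the score differed as well: Cxcl1 was 2.02-fold and Ifit2 1.86-fold higher, but without the cell richest in each the ratios were 1.20 and 1.24. Hspa1a (1362 against 6515 CPM, 0.209), Jun (223 against 672 CPM, 0.332), Egr1 (0.472), Ddit3 (0.620), Atf4 (0.756) and Cdkn1a (0.756) were lower in the high-score cells. Low levels of some genes were shared by the 2 sets. Gbp5 stood at 19.2 against 17.2 CPM (1.12, and 2.40 without the cell richest in it). Tgfbr1 was at 305 against 215 CPM (1.41), Adgre1 at 270 against 266 CPM (1.01) and C1qa at 2125 against 2045 CPM (1.04). Gated cells in neither range had 185, 752, 377 and 2663 CPM of these 4 genes. Since heat-shock genes chose the second set, its own level of them is no finding.

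**Figure D4:**
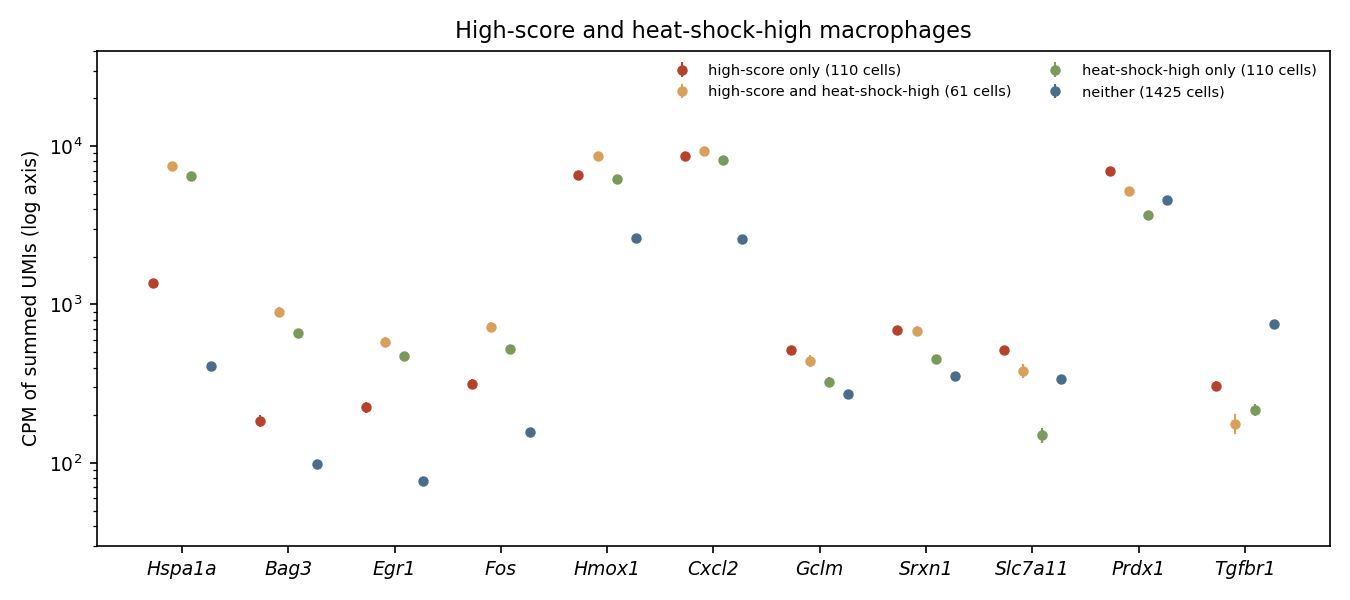
CPM of summed UMIs with exact Poisson 95% intervals (log axis) for the genes named on the axis in high-score cells outside and inside the heat-shock-high 10%, in heat-shock-high cells outside the high-score set, and in all other gated macrophages. Hmox1 is at 6552 CPM in high-score-only and 6238 CPM in heat-shock-only cells, whereas Slc7a11 is at 514 and 150 CPM in them. All other gated macrophages are at 2615 CPM for Hmox1 and 338 CPM for Slc7a11.

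High-score cells also varied by the gene that led their score. The 27 cells led by Gdf15 had more Cxcl1 than the 114 led by Gclc (991 against 127 CPM, and 442 against 127 CPM without the 1 Gdf15-led cell that held 354 Cxcl1 UMIs), more Cxcl2 (11818.5 against 7893.25 CPM, 1.5-fold) and more Tnf (655 against 401 CPM, 1.63-fold, and 1.35-fold without the cell richest in it). They had less Hmox1 (5204 against 7379 CPM, 0.705), Hspa1a (1607 against 3116 CPM, 0.516) and Egr1 (135 against 324 CPM, 0.417). Gbp5 stood at 68.2 against 6.27 CPM (10.9-fold, and 6.46-fold without the cell richest in it). These sets are small, and leaving out the richest cell was an alternative chosen after seeing the data. It moved none of the other ratios named here by over 1.5 times.

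Surface CD9, which the score did not use, was lower on high-score cells, but this depended on how the 6 genes were combined. It was also low on heat-shock-high cells. High-score cells carried from 2 through a median of 389 to 14980 CD9 antibody UMIs, the others from 6 through 682 to 37469, and lymphoid cells had a median of 47. The ranges overlap almost entirely. The mean was 1424 on high-score and 1860 on other gated macrophages (ratio 0.765, counting interval 0.762 to 0.768, and 0.768 per RNA UMI). When the cells were chosen by their mean rank over the 6 genes, so that Gclc weighed no more than the rest, the ratio was 1.04. Cd9 mRNA was the same in both sets, at 218 CPM each (ratio 1.0, 0.929 to 1.08). Of the high-score cells 65 lay in the lowest tercile of CD9 among gated cells, 61 in the middle and 45 (26.3%, exact interval 19.9 to 33.6%) in the highest. The 110 heat-shock-high cells outside the high-score set had a CD9 mean of 995 and a median of 414.5 UMIs. High-score cells outside the heat-shock-high range had 1603 and 393.5, and gated cells in neither range 1927 and 717. CD206 had a median of 9 UMIs on both high-score and other gated cells, and means of 17.4 and 26.0 (ratio 0.670, 0.645 to 0.695). Among the others 1 cell held 6365 of their 39900 CD206 UMIs. The ratio of means leans on that cell, and its value without the cell was not computed. Its mRNA, Mrc1, stood at 31.9 against 31.7 CPM (1.01, 0.826 to 1.22). The antibodies were read through these oligonucleotide barcodes, shown because each surface value is a count of them:
CD9: tagcagtcactccta
CD206: tcaactcggtgttgc

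**Figure D5:**
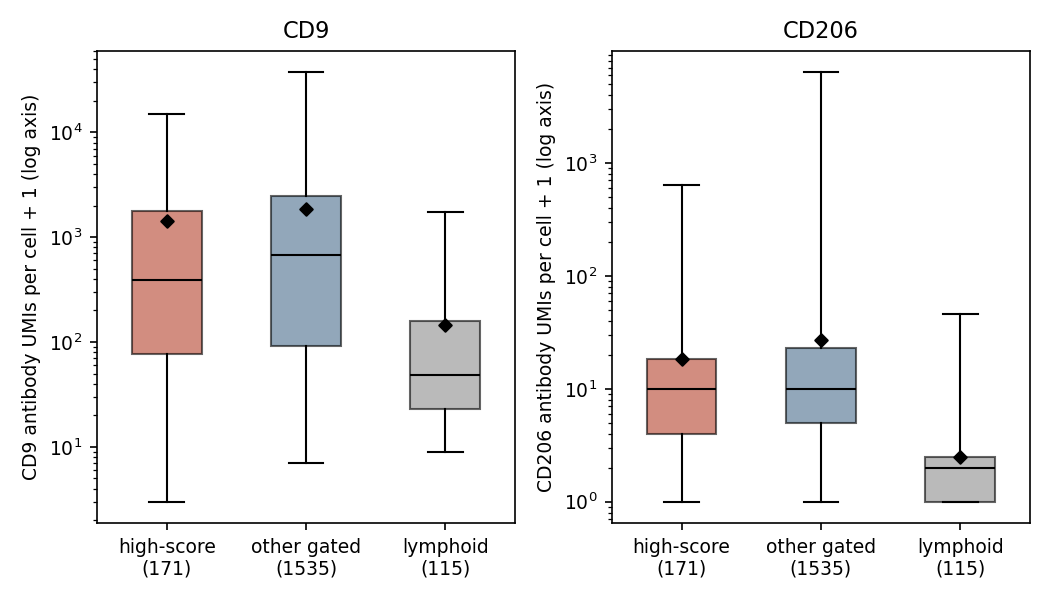
CD9 and CD206 antibody UMIs per cell plus 1 (log axis) in high-score, other gated and lymphoid cells; boxes are quartiles with the median, whiskers the lowest and highest cell, diamonds the mean. The CD9 medians are 389, 682 and 47 UMIs, and the CD206 medians 9, 9 and 1.

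Promoter sequence offers a view of these genes that the score did not use. RefSeq windows (GRCm38.p6) of the 250 bases before an annotated start of a gene were searched on both strands for 7 short motifs. A gene can have several starts, and each motif's share of all 32851 windows was the background. They were TGACNNNGC, the core of the antioxidant response element bound by NRF2 (10.2% of windows), TGANTCA for AP-1 (6.75%), TGACGTCA, the cAMP response element (1.55%), GAANNTTC and TTCNNGAA, paired heat-shock units (6.69% and 7.17%), GGNNTTTCC for NF-κB (4.93%) and TGATGNAA, bound by ATF4 (3.45%). An antioxidant core and an AP-1 site can overlap. Windows were found for 20 NRF2 targets, of which 5 held the antioxidant core, for 15 heat-shock genes, of which 7 held GAANNTTC and 4 TTCNNGAA, and for 6 CXC chemokines, of which 5 held the NF-κB site, chemokines of both directions among them. The antioxidant core also stood in 5 of 13 immediate-early genes. Over all 27025 genes with a window the shares were 11.5% for the antioxidant core, 7.73% for GAANNTTC, 8.11% for TTCNNGAA and 5.62% for the NF-κB site. Of the score genes only Gdf15, Zfand2a and Efr3b had a window, and none of these 3 genes held the antioxidant core or an AP-1 site. No window was found for Osm, Gclc, Fosl1 or Hmox1, so they were not searched. The windows below are shown for 2 genes of the score, 2 NRF2 targets, an inducible HSP70 gene and a chemokine gene, with each match in capitals. All of the windows shown hold a match. A match is a stretch of letters, not a bound site.
Zfand2a (chr5:139484492-139484741, minus strand): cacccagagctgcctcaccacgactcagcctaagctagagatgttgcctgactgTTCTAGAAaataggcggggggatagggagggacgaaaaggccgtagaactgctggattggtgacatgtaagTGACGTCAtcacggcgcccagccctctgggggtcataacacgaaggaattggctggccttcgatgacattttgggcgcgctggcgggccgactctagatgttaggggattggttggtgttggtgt
Gdf15 (chr8:70632096-70632345, minus strand): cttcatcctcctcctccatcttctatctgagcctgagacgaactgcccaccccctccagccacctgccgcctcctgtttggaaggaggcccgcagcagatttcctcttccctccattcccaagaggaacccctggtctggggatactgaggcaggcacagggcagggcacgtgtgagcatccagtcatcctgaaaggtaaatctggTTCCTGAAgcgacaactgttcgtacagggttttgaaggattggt
Gclm (chr3:122245307-122245556, plus strand): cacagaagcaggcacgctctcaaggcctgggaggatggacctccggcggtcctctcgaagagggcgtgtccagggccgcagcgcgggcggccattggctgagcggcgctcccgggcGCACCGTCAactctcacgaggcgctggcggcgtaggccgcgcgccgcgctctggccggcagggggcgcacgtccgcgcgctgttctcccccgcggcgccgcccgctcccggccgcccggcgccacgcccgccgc
Srxn1 (chr2:152105274-152105523, plus strand): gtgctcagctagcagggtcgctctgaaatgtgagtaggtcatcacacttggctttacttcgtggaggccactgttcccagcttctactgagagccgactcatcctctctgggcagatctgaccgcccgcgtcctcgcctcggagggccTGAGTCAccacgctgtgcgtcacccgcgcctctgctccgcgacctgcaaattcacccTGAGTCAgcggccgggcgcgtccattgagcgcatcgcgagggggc
Hspa1b (chr17:34959239-34959488, minus strand): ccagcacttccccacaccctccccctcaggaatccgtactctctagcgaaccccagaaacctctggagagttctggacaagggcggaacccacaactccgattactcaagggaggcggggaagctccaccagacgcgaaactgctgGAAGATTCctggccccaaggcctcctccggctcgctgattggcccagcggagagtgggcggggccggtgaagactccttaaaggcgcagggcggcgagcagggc
Cxcl2 (chr5:90903649-90903898, plus strand): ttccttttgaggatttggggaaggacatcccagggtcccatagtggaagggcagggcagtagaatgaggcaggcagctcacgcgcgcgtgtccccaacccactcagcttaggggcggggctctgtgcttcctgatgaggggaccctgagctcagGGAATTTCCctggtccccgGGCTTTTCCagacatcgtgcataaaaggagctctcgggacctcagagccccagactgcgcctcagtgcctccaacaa
The Zfand2a window, of a score gene, holds TTCNNGAA 196 bases and the cAMP response element 125 bases before the start. Of the 2 Gdf15 windows, the first lies at the outer end of the gene and holds none of the 7 motifs. The second, shown above, lies within the gene's coordinates given earlier and holds TTCNNGAA. The Gclm match is the antioxidant core read on the opposite strand, Srxn1 has 2 AP-1 sites, Hspa1b has GAANNTTC, and Cxcl2 has 2 NF-κB sites, 96 and 77 bases before its start.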

How the data were processed

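The deposited values are whole-number UMI counts for each gene or antibody tag in each barcode. Per the file headers they come from Cell Ranger 8.0.1, and the submitters' processing notes name the build mm10. How barcodes were kept is not given in the sources. The matrix holds 32285 genes, 2 tags and 2237 barcodes, and 40 symbols shared by several IDs were given to the ID with more UMIs.

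From these, UMIs were summed over cells and scaled to CPM. Ratios carry exact conditional binomial, sums exact Poisson and shares exact Clopper-Pearson 95% intervals (scipy 1.17.1). They cover counting error only, and PCR or cell-to-cell variation is outside them. The 171 high-score cells held 3732957 RNA UMIs, the 1535 others 33627269. The ratio step was tested on simulated sums. Doublets were scored with Scrublet in scanpy 1.11.5, whose own threshold marked 14 cells (0.632%). No cell was removed in the values given; the 40 highest-scoring cells, left out as an alternative, included 4 high-score cells (2.34%) and 33 others (2.15%).

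Members, lists and tests were chosen with earlier results of these data known. Genes were named from all genes measured by the interval bound nearest to 1 (15 higher and 12 lower, without mitochondrial, ribosomal, hormone, acinar and score genes), from each list by the same bound (at most 4 per direction), and from a set fixed whatever its ratio. Further listed genes were named after their values were seen: Gclm, Slc7a11, Prdx1, Tkt, Nqo1, Me1, Mafk, Hsph1, Hspa8, Oasl1, Cd14, Lyz2, H2-Aa, Cd74, Ly6g, Il7r, Cd3e, Ighm, Fth1, Sqstm1, Ins1 and Ins2. Of 139 named genes 138 matched the RefSeq annotation. Some listed genes are counted but not reported by name here. The split by heat-shock genes, the leading genes and the 10 bins were also chosen with values known. Alternatives changed the share taken, the gates, the depth, the form of the score, the scaling, the filters and the cells left out.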

Additional observations from a re-analysis of the deposited data

How the results depend on the processing

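No paired analysis was possible because the series has 1 pooled sample and no replicate numbers. For the same reason no replicate was left out in turn. Which cells are taken depends on the form of the score: by mean rank of the 6 genes 98 of the 171 high-score cells were kept, and 136 after thinning to 5000 UMIs. Where cells were left out, the top 10% was taken anew among those kept. Without heat-shock-high cells this gave 154 cells, of which 110 were high-score cells.

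Against 640 higher and 2257 lower genes, scaling to the median ratio gave 1162 higher genes, a minimum of 20 UMIs gave 1251 higher and 3529 lower, no filter gave 2678 higher, a 2-fold limit gave 208 and 947, and thinning gave 1456 lower. The 8 NRF2 targets higher by 1.5-fold became 16 with median-ratio scaling and 2 at a 2-fold limit, and lay between 6 and 12 under the other alternatives. The median log2 of the NRF2 list lay between 0.45 and 0.70, of the heat-shock list between 0.67 and 0.95 and of the interferon list between -1.83 and -1.17 under all alternatives. The held-out log2 ratio of Gdf15 lay between 0.89 and 1.58.

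The CD9 antibody ratio of 0.765 was 0.713 for the top 5% of cells, 0.798 for the top 20%, 0.731 within depth bins, 0.696 after thinning, 0.742 with at least 10000 UMIs, 0.739 with the C1q limit at 1000 CPM, 0.770 with at most 5% mitochondrial UMIs, 1.04 by mean rank, 0.746 without doublet-scored cells, 0.731 without cells rich in islet RNA, 0.862 without heat-shock-high cells, 0.728 without interferon-high cells and 0.570 for medians. The CD206 ratio of 0.670 was 0.854 for the top 5%, 0.607 for the top 20%, 0.623 with the C1q limit at 1000 CPM, 0.634 without cells rich in islet RNA, 0.712 without heat-shock-high cells, 0.792 without interferon-high cells and 1.0 for medians.

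The median log2 of 10 of 29 lists changed sign under at least 1 alternative. These were the cell cycle list (-0.66, and 0.11 by mean rank), neutrophil and monocyte markers (-0.58, up to 0.18 by mean rank), dendritic cell markers (-0.21, up to 0.27 by mean rank) and CC chemokines (-0.31, and 0.06 without interferon-high cells), and, with medians within 0.2 of 0, the TGF-β (-0.14), cytokine (-0.19), unfolded protein (-0.04), gp130 (0.05), hypoxia and glycolysis (0.07) and lipid-associated (0.07) lists. Signs of genes at least 1.5-fold apart turned for Ccr2 (0.28 for the top 20%, 0.24 by mean rank, 0.20 without heat-shock-high cells), Mki67 (0.17 by mean rank), Pde10a (-1.76 for the top 5%), Tgfb3 (-0.18 without heat-shock-high cells) and 4931414P19Rik (-0.18 without its richest cell). A further 25 values of genes under 1.5-fold turned. Of the other log2 values of named genes, 1499 moved by less than their counting interval and 518 by more without turning. Thinning, fewer cells and lower filters change these values by their construction; other causes were not tested.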

Other observations

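Outside the comparisons above, the cell cycle list had 5 of 9 measured genes at least 1.5-fold lower in high-score cells, beside 22.7% of all genes (median log2 -0.66). Mki67 stood at 23.8 against 46.2 CPM and Tyms had 4 and 193 UMIs, although the summed cell cycle list per cell had medians of 203 and 179 CPM. The sign of the cell cycle median depended on the form of the score. Of 16 oxidative phosphorylation genes 1 was at least 1.5-fold lower, a smaller share than the 22.7% of all genes, and none as much higher, beside 6.44% of all genes. Of 16 NF-κB feedback genes, Nfkbid was higher (1.72-fold) and Tnip3 lower (351 against 644 CPM, 0.545), and the others stayed under 1.5-fold. The share higher lay near the 6.44% of all genes and the share lower under the 22.7%. Of 20 genes of lipid-associated macrophages, Cd36 and Fabp5 were higher, beside 6.44% of all genes. The cholesterol exporter Abcg1 was lower (124 against 219 CPM, 0.566), beside 22.7% of all genes. In the TGF-β list, which holds the receptor Tgfbr1, the inhibitory Smad7 was higher (61.1 against 34.8 CPM, 1.75-fold) and the protease gene Furin lower (0.566). Within the CC chemokines, Ccl22 was lower (0.220), and Ccl8 rested on 1 cell among the other gated macrophages, which held 88.3% of its UMIs.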
